A study of Mus musculus with 6 samples.

Results

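Immunoglobulin genes are the genes from which B cells and plasma cells make antibodies, and they were measured here in sorted regulatory T cells (Tregs), in which the Foxp3 lineage factor, CD4 and the T-cell receptor are the defining products. Members were chosen by their measured values: every gene whose symbol names a heavy, kappa or lambda variable, diversity or constant segment and whose raw counts summed to at least 30 over both groups. This selection took 174 genes of 376 immunoglobulin symbols in the table, which holds 32285 genes in all. The sum was taken without regard to group, so the rule itself favoured neither direction. In KO alone 24 members had fewer than 30 counts, and in WT alone 13 did, so their place rests in part on the other group. The RNA came from CD4+CD25+ Tregs of the spleens of C57BL/6 mice, with 3 WT and 3 KO libraries. In the study's description, the KO mice carried ERCre and floxed Zfp335 (ERCre Zfp335fl/fl), the WT mice carried ERCre, all were 6 weeks old, and tamoxifen at 10 mg/mL was given in 3 injections before the spleens were taken on day 7. The labels of the samples name wild-type littermates as controls and give no drug treatment. ERCre is a Cre recombinase that enters the nucleus when tamoxifen binds it and is not limited to Tregs.

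An antibody is made of heavy and light chains, and each chain has a variable region that binds antigen and a constant region. The variable region of a heavy chain is assembled from a variable (V), a diversity (D) and a joining (J) segment, and that of a light chain, kappa or lambda, from a V and a J segment. The heavy constant gene decides the class: Ighm encodes IgM, Ighd IgD, the Ighg genes IgG, Igha IgA and Ighe IgE. T cells assemble T-cell receptor genes instead, although transcripts of the heavy chain locus that carry no assembled variable region are known in T cells.

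The 174 members were 12 constant, 159 variable and 3 diversity genes. In GENCODE vM21 (GRCm38), 93 lay in the heavy chain locus on chromosome 12 between positions 113254830 and 116010093, all on the minus strand. The kappa locus on chromosome 6, between 67555497 and 70726966, held 75, of which 29 were on the plus strand and 46 on the minus strand. The lambda locus on chromosome 16, between 19061618 and 19260859, held 6. The members nearest the limit of 30 counts were Ighv5-15 with 32 and Ighd1-1 with 33 inside it, and Ighv5-2 with 29 and Igkv4-63 and Igkv4-69 with 28 each outside it.

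The library labels held for the targeted gene. Zfp335, which encodes a zinc finger transcription factor, stood at 124, 121 and 115 CPM (counts scaled to the size of the library, with TMM factors) in WT 1 to 3 and at 14.3 to 15.1 in the KO libraries. The libraries held 133283969 to 209041812 counts. Foxp3 was at 1120 to 1154 CPM in WT and 1046 to 1062 in KO. Xist, the RNA of the inactive X chromosome, was at 0.187 to 0.424 CPM in WT and 124 to 145 in KO. Xist, higher in KO, and Zfp335, lower in KO, thus split the libraries by the same groups, and their parts in the values below cannot be told apart.

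V segments of a family share long stretches of sequence, which bears on how far a single V gene's count can be read. The most abundant V gene, Igkv10-96, and its nearest relative, Igkv10-94, are shown first, as the last 95 bases of each (GRCm38, minus strand, chr6:68631963-68632057 and chr6:68704508-68704602), written 5′ to 3′ with the bases that differ in capitals.
Igkv10-96: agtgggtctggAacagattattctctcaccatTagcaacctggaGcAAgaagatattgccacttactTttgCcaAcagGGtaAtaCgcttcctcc
Igkv10-94: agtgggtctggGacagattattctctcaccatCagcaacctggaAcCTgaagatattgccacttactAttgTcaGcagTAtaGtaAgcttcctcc

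These stretches were 87.4% identical, with 12 differences. Over the members with an annotated transcript of 50 bases or more, a median of 22.4% of a gene's 50-base stretches also occurred in a transcript of another gene. More than 50% of the stretches were shared in 24 members, and fewer than 25% in 94. How reads that match several genes were counted is not given in the sources used here, so the count of 1 V gene may hold reads of its relatives. The constant genes Ighm, Ighd, Igha, Ighe, Igkc and Iglc1 shared no such stretch.

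More immunoglobulin genes were called lower than higher in the KO Tregs. Of 165 members that passed edgeR's filter on low counts, 65 were called lower and 7 higher at an adjusted p under 0.05 (edgeR quasi-likelihood test, Benjamini-Hochberg over all 17307 genes tested). Over all genes tested, 12.1% were called lower and 12.0% higher. The median log2 fold change of KO over WT was -1.07 over the 165 members, beside -0.0042 over all genes tested, and it was the same with members at 0 in a whole group set to their bound. In 81 of the 165 every KO library was below every WT library, and in 10 every KO library was above every WT library, where all genes gave 19.1% and 19.3%. In a bulk library, fewer cells of a type and less RNA per cell cannot be told apart. Of the 65 called lower, 23 were among 36 members with all 3 WT but not all 3 KO libraries above the filter's 0.0542 CPM. For these, passing the filter leaned on the WT libraries. Of the 7 called higher, 5 were among 8 members with all 3 KO but not all 3 WT libraries above that level. Their passing leaned on the KO libraries in the same way. The filter counts libraries without regard to group, and 4 tested members had neither group fully above the limit. Of the 117 members above 0.0542 CPM in all 6 libraries, 42 were called lower.

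**Figure D1:**
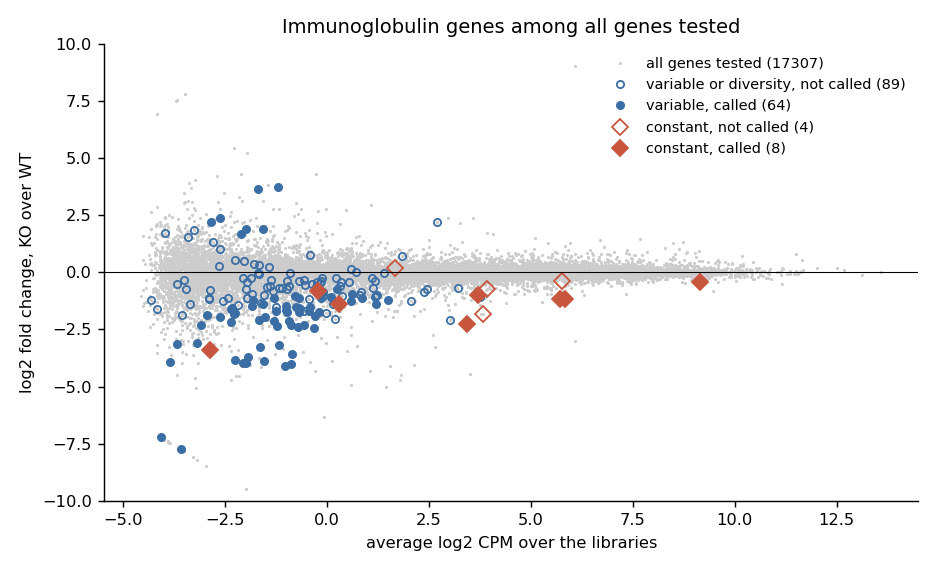
Log2 fold change (KO over WT, edgeR) against average log2 CPM over the 6 libraries, with 1 point per gene; grey points are all 17307 genes tested, blue circles variable or diversity members and red diamonds constant members, filled where called. Of the members, Ighm lies farthest right, at an average log2 CPM of 9.15, and was called lower. The 7 filled points above 0 lie in the left part of the plot. The 2 lowest filled circles are Igkv1-122 and Igkv8-18. Both were at 0 in every KO library, so that their position depends on the prior count of the fit.

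Immunoglobulin RNA summed over all 174 members averaged 1135 ± 67.8 CPM in the WT libraries and 747 ± 100.02 CPM in the KO libraries (SD, n = 3 each), or 65.8% of WT. It was 1101, 1091 and 1213 CPM in WT 1 to 3 and 769, 834 and 638 CPM in KO 1 to 3, so the groups did not overlap. Ighm alone supplied 56.5% to 58.7% of the immunoglobulin counts in the WT libraries and 58.2% to 77.5% in the KO libraries. Without Ighm the sum averaged 485 ± 38.8 CPM in WT libraries and 257 ± 104 CPM in KO libraries, or 53.1% of WT. This sum was 280, 349 and 144 CPM in KO 1 to 3 against 451 to 527 CPM in WT.

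Among the 12 constant genes, 8 were called lower, 0 higher, and 11 had a negative log2 fold change, with a median of -1.08; at an unadjusted p under 0.05, 9 were lower and 0 higher in edgeR. Ighm (chr12:113418558-113422730, minus strand), the mu chain that B cells make first, was the most abundant member per length as well, at 345 CPM per kb in WT. Ighm measured 624, 640 and 686 CPM in WT 1 to 3 and 489, 486 and 494 CPM in KO 1 to 3. The KO libraries lay close together and below all WT libraries, with a log2 fold change of -0.41 ± 0.04 (SE, edgeR adjusted p = 3.73e-06). Ighd, the delta chain of mature B cells, fell further, from 17.5 ± 1.09 to 8.67 ± 0.138 CPM (log2 fold change -1.01 ± 0.06, edgeR adjusted p = 1.27e-07). Igha, the chain of mucosal antibody, was 71.9, 70.6 and 74.3 CPM in WT 1 to 3 and 34.8, 31.1 and 31.8 CPM in KO 1 to 3. The spread within either group was small beside the difference (log2 fold change -1.15 ± 0.05, edgeR adjusted p = 2.10e-09).

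The 4 IgG heavy chain genes moved unevenly. Ighg2b fell from 16.7, 20.9 and 16.2 CPM in WT 1 to 3 to 4.53, 5.24 and 1.61 CPM in KO 1 to 3 (log2 fold change -2.24 ± 0.37, edgeR adjusted p = 0.0167). That call was lost without WT 2 (edgeR adjusted p = 0.0575) and without KO 1 (edgeR adjusted p = 0.0602). Ighg2c, at 21.5, 27.2 and 18.1 CPM in WT and 2.76, 12.3 and 3.31 CPM in KO, did not pass the test (log2 fold change -1.84 ± 0.60, edgeR adjusted p = 0.111), although the groups did not overlap. It was called lower by DESeq2 (adjusted p = 0.035), by limma-voom (adjusted p = 0.0024) and without KO 2 (log2 fold change -2.88, edgeR adjusted p = 0.000491). Ighg1 spread widely between KO libraries. Ighg1 stood at 68.1, 50.1 and 68.4 CPM in WT 1 to 3 and at 41.4, 88.9 and 12.1 CPM in KO 1 to 3. KO 2 was thus above and KO 3 far below all WT libraries, and the difference between groups was smaller than its error (log2 fold change -0.38 ± 0.74, edgeR adjusted p = 0.781). Ighg3 was at 2.33 to 3.73 CPM in WT and 2.22 to 4.54 in KO, with a log2 fold change of 0.17 ± 0.29 (edgeR adjusted p = 0.731). Ighe, the chain of the allergic antibody class, had only 71, 35 and 16 counts in WT 1 to 3 and 4, 0 and 9 counts in KO 1 to 3. It was called lower (log2 fold change -3.38 ± 0.79, edgeR adjusted p = 0.00565), with values of -2.77 without WT 1, -2.75 without KO 2 and -4.44 without KO 3.

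Light chain constant genes fell as well. Igkc (chr6:70726435-70726966, plus strand), the only kappa constant gene, measured 71.6, 80.0 and 86.9 CPM in WT 1 to 3 and 42.1, 34.2 and 30.8 CPM in KO 1 to 3, without overlap (log2 fold change -1.15 ± 0.13, edgeR adjusted p = 0.00255). Per length Igkc stood second to Ighm, at 149 CPM per kb in WT and 67.2 in KO. Of the lambda constant genes, Iglc3 fell from 1.78 ± 0.254 to 0.682 ± 0.158 CPM (log2 fold change -1.38 ± 0.20, edgeR adjusted p = 0.000284) and Iglc1 from 1.10 ± 0.218 to 0.614 ± 0.0417 CPM (log2 fold change -0.81 ± 0.22, edgeR adjusted p = 0.0159). The call of Iglc1 was lost without KO 1 (edgeR adjusted p = 0.0602) and without KO 2 (edgeR adjusted p = 0.0509). Iglc2, the most abundant of them, was at 20.8, 13.9 and 22.6 CPM in WT 1 to 3 and 10.5, 19.2 and 3.85 CPM in KO 1 to 3, and did not pass the test (log2 fold change -0.74 ± 0.60, edgeR adjusted p = 0.473). As for Ighg1, the highest of the KO libraries was KO 2 and the lowest KO 3. Igkc overlaps the annotated gene Gm30211, Iglc2 contains the segment Iglj2, and Iglc1, Iglc3 and Iglv1 overlap 2010309G21Rik, so reads could be divided differently between them.

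**Figure D2:**
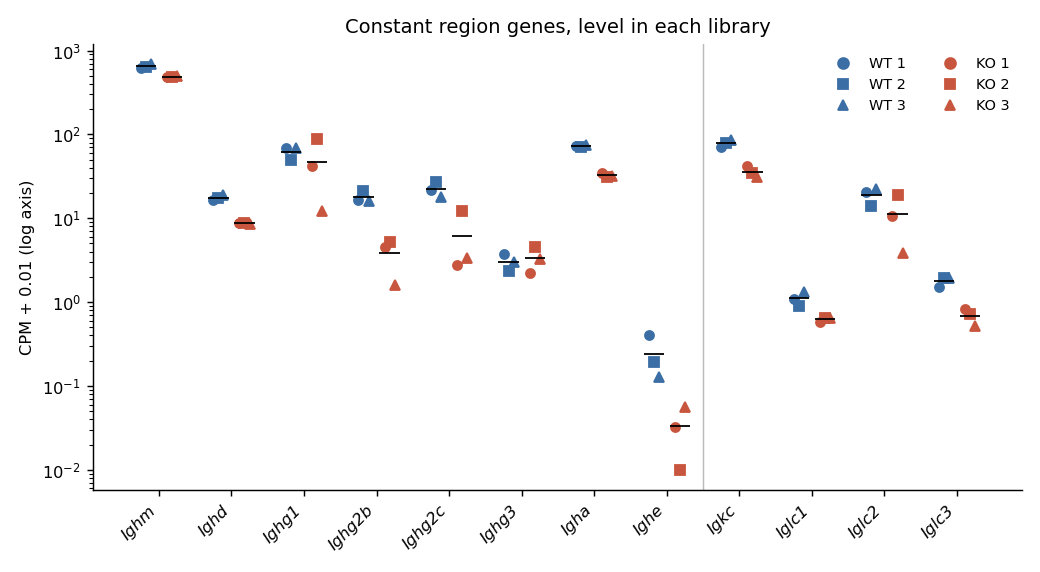
Level of the 12 constant genes in each library, as CPM + 0.01 on a log axis; blue symbols are WT and red symbols KO libraries, the symbol shape gives the replicate number, black bars are group means, and heavy chain genes stand left of the grey line. Ighm, Ighd, Igha and Igkc are tight and lower in KO, whereas Ighg1 and Iglc2 spread widely between KO 1, KO 2 and KO 3.

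The fold change of Ighm was smaller than those of Ighd, Igha and Igkc. Its counts divided by those of Igkc gave log2 ratios of 2.98 to 3.12 in WT and of 3.54, 3.83 and 4.004 in KO 1 to 3, a difference of 0.75 with no overlap. The exact permutation test over the 6 libraries gave p = 0.1 (two-sided, n = 3 and 3), which is the smallest it allows, and an adjusted p of 0.333 over 10 such ratios. Igha against Igkc differed by 0.0091 on the log2 scale (exact permutation p = 1, adjusted p = 1, n = 3 and 3), with group SDs of 0.123 and 0.160. Ighd against Igkc differed by 0.15 (exact permutation p = 0.4, adjusted p = 0.571, n = 3 and 3). Ighg2b lay below Igkc by a further 1.24 in KO and Ighg3 rose above its WT ratio by 1.28, in all 3 KO libraries each (exact permutation p = 0.1, adjusted p = 0.333 for both, n = 3 and 3). The other 5 ratios overlapped between groups, and Ighe was left out because of its count of 0.

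The classes other than IgM took similar shares of the heavy constant counts in the 3 WT libraries and different ones in each KO library. Of the heavy constant counts other than Ighm, Ighg1 took 34.2%, 26.6% and 34.4% in WT 1 to 3 and 43.8%, 59.0% and 20.0% in KO 1 to 3. Igha took 36.1% to 37.4% in WT and 36.8%, 20.6% and 52.4% in KO 1 to 3. Among these counts Ighg1 had its highest share in KO 2 and Igha in KO 3, although the level of Igha in KO 3 was no higher than in KO 1. Within the IgG genes, Ighg2b took 15.2% to 20.8% in WT and 4.72% to 8.90% in KO, and Ighg2c 17.1% to 27.1% in WT and 5.43% to 16.3% in KO, both without overlap. Ighg3 took 2.31% to 3.39% of the IgG counts in WT and 4.09% to 16.04% in KO, the highest in KO 3.

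**Figure D3:**
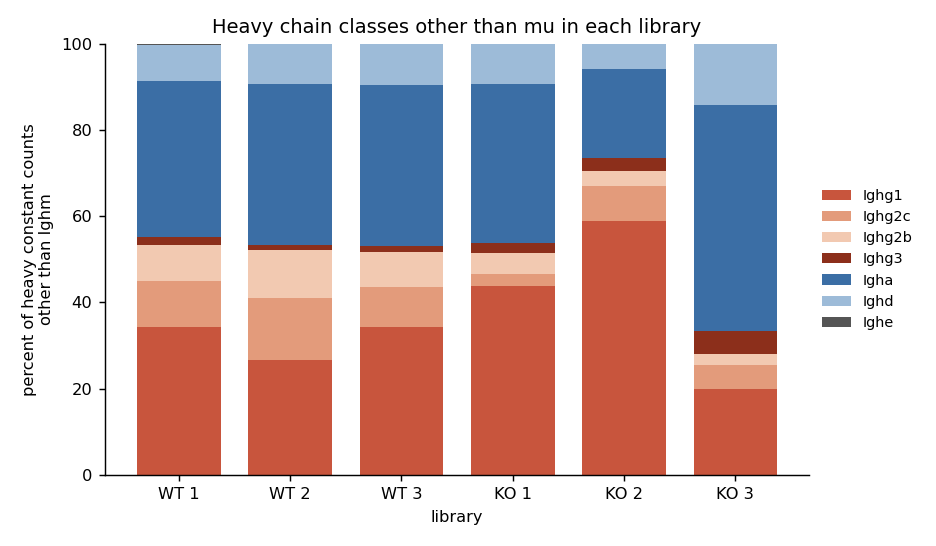
Share of each heavy constant gene other than Ighm in their summed counts, in percent, as 1 stacked bar per library. The 3 WT bars are alike, KO 2 is dominated by Ighg1 at 59.0% and KO 3 by Igha at 52.4%.

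Variable genes were lower by a similar median as constant genes but with much greater spread between KO libraries. Of 151 tested variable members, 57 were called lower and 7 higher, with a median log2 fold change of -1.10. The summed level of the 159 variable members was 182, 165 and 215 CPM in WT 1 to 3 and 131, 143 and 47.0 CPM in KO 1 to 3. All KO libraries lay below WT, and KO 3 lay far below the other KO libraries. The median CV of a variable member was 29.6% in WT and 58.1% in KO, and that of a constant member 15.6% and 29.1%. Measured as log2(CPM + 0.01) against the gene's WT mean, the median variable member was at -1.07 in KO 1, -0.60 in KO 2 and -1.90 in KO 3. KO 3 was the lowest of the KO libraries for 115 of all 174 members and KO 2 the highest for 111. Over all members the median log2 fold change was -0.73 without KO 3 and -1.41 without KO 2.

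**Figure D4:**
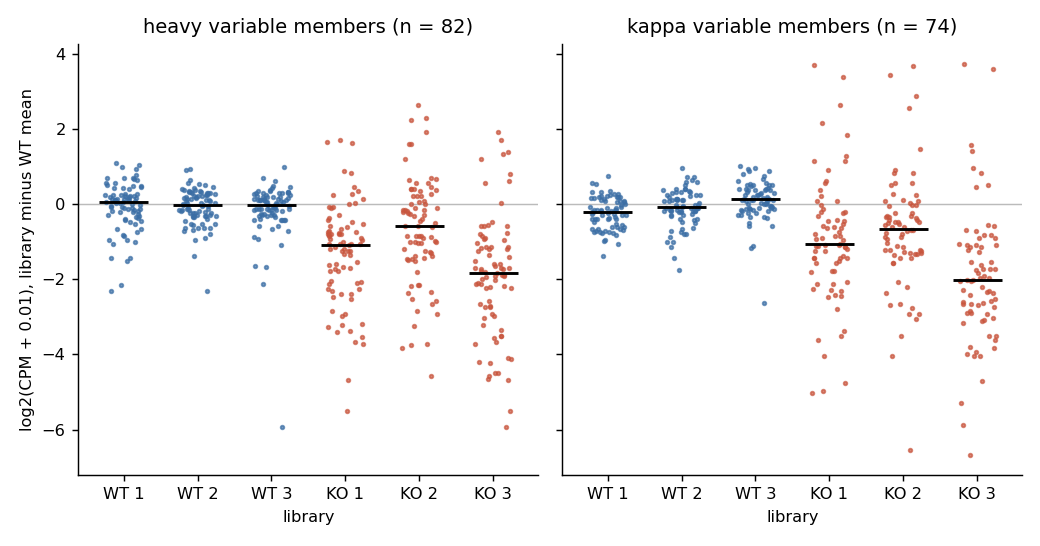
Each point is 1 heavy (left, n = 82) or kappa (right, n = 74) variable member, placed by its log2(CPM + 0.01) in a library minus the log2 of its WT mean on the same scale; black bars are medians. Medians are near 0 in the WT libraries and below 0 in each KO library, lowest in KO 3 at -1.83 for heavy and -2.03 for kappa members.

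Constant and variable regions of a chain are joined in 1 transcript, so their sums were set beside each other. Constant over variable counts was 5.04, 5.60 and 4.63 in WT 1 to 3 and 4.88, 4.85 and 12.6 in KO 1 to 3, so only KO 3 stood outside the WT range. Heavy variable counts over heavy constant counts other than Ighm were 0.375, 0.336 and 0.327 in WT 1 to 3 and 0.362, 0.359 and 0.317 in KO 1 to 3. The group means of this ratio were 0.346 ± 0.0254 and 0.346 ± 0.0253 (SD, n = 3 each). With Ighm in the denominator the ratio was 0.0736 to 0.0907 in WT and 0.0346 to 0.0850 in KO. For kappa, variable over constant counts ranged from 1.25 to 1.70 in WT and were 2.26, 2.52 and 0.856 in KO 1 to 3. KO 1 and KO 2 were thus above WT in this ratio and KO 3 below it.

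Heavy and light chain genes gave similar counts of calls. Of 87 tested heavy chain members, 36 were called lower and 3 higher, with a median log2 fold change of -1.13. Of 78 tested light chain members, 29 were called lower and 4 higher, with a median of -1.05. The summed heavy level fell to 68.7% of WT (914 ± 31.8 to 628 ± 59.1 CPM) and the light level to 53.8% (221 ± 36.1 to 119 ± 48.2 CPM). Among constant genes, heavy over light counts were 8.67, 8.57 and 7.85 in WT 1 to 3 and 10.8, 11.6 and 15.5 in KO 1 to 3, without overlap. Without Ighm the same ratio was 1.76 to 2.10 in WT and 1.75, 2.75 and 1.69 in KO 1 to 3, and the groups overlapped. Heavy over light counts of the variable genes also overlapped, at 0.433 to 0.695 in WT and 0.354 to 0.689 in KO. Lambda took 17.3% to 24.6% of light constant counts in WT and 22.0%, 37.5% and 14.0% in KO 1 to 3.

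Kappa V counts exceeded heavy V counts in every library, and a few kappa V genes held a large part of them. The 5 most abundant in each library, not always the same genes, took 39.8% to 55.2% of the kappa V counts in WT and 59.8%, 51.4% and 34.8% in KO 1 to 3. Igkv10-96, the first of the sequences above, was at 16.6, 11.7 and 27.6 CPM in WT 1 to 3 and between 2.93 (KO 3) and 12.8 CPM (KO 2) in KO. It led the kappa V genes in all 3 WT libraries and in KO 3, and the groups overlapped (log2 fold change -1.07 ± 0.63, edgeR adjusted p = 0.322). Its relative Igkv10-94 had a log2 fold change of -0.85 ± 0.66 (edgeR adjusted p = 0.449). Igkv8-19 led in KO 2, at 13.7 CPM beside 5.34 in KO 1 and 1.80 in KO 3, and was at 9.38 to 14.6 CPM in WT. Igkv1-135 was at 6.33, 7.96 and 25.7 CPM in WT 1 to 3 and 3.03, 4.89 and 0.867 CPM in KO 1 to 3, without overlap, and did not pass the test (log2 fold change -2.08 ± 0.92, edgeR adjusted p = 0.207; limma-voom adjusted p = 0.0472). WT 3 alone held 52.7% of its summed CPM. Igkv2-137, at 5.93 to 8.13 CPM in WT and 2.33 to 5.78 in KO, also did not pass (log2 fold change -0.72 ± 0.33, edgeR adjusted p = 0.196), but was called without KO 1 (edgeR adjusted p = 0.0261) and by limma-voom (adjusted p = 0.0387).

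Igkv6-17 stood out in a single library. It had 281, 205 and 610 counts in WT 1 to 3 and 5484, 182 and 52 counts in KO 1 to 3. KO 1 held 78.7% of its summed CPM, and there the gene took 32.3% of all kappa V counts, against 1.02% to 3.07% in every other library. The difference between groups was close to its error in size (log2 fold change 2.22 ± 2.02, edgeR adjusted p = 0.524), and without KO 1 the log2 fold change was -1.90. The gene lies at chr6:70371439-70371993 on the plus strand. Its last 95 bases (chr6:70371899-70371993) are shown beside those of its nearest relative Igkv6-25 (chr6:70215863-70215957, plus strand), with the bases that differ in capitals.
Igkv6-17: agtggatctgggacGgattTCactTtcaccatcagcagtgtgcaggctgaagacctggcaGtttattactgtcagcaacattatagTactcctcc
Igkv6-25: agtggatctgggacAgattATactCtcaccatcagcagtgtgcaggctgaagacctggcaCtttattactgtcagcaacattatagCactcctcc

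The stretches differed at 6 bases and were 93.7% identical, but Igkv6-25 did not share the high value. Igkv6-25 had 158, 289 and 196 counts in WT 1 to 3 and 45, 110 and 41 in KO 1 to 3, and was called lower (log2 fold change -1.90 ± 0.33, edgeR adjusted p = 0.000944). The effective number of kappa V genes, a count that weighs each gene by its share, was 7.52 in KO 1, 12.01 to 22.2 in WT, 14.2 in KO 2 and 24.98 in KO 3.

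The J segments, which the rule left out, gave a further measure of light chain transcripts. The 5 kappa J segments (GRCm38, chromosome 6, plus strand, GENCODE vM21) are shown with the letters TTCGGNNNNGG in capitals where a segment holds them. These letters cover the phenylalanine and glycines at the start of the last framework stretch of the chain.
Igkj1: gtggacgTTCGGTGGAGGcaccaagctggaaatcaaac
Igkj2: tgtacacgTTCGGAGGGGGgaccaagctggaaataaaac
Igkj3: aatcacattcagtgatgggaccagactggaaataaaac
Igkj4: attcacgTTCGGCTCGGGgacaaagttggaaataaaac
Igkj5: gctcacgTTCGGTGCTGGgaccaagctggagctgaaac

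Searched on both strands, 4 of the 5 held the letters, each on the strand shown, as did 0.0512% of 1953 stretches of 38 bases from the members' own transcripts. The letters belong to a stretch encoded by J segments, which are not members, so this contrast was fixed by their choice. Igkj3, the segment without the letters, had 2 or 3 counts in every library. Whether the letters bear on the counts was not tested. Igkj2 had 116, 150 and 135 counts in WT 1 to 3 and 1153, 132 and 47 in KO 1 to 3. It took 72.3% of the kappa J counts in KO 1 and 15.1% to 22.9% in the other 5 libraries, so the library with the high Igkv6-17 value was also the one with the high Igkj2 value. Igkj1 took the largest share elsewhere, at 44.02% to 55.8%. Single reads that span both segments are not in the count table, so whether Igkv6-17 and Igkj2 lay in the same transcripts was not tested. In KO 1 the lambda segment Iglj2 also had 34 counts, against 1 in every other library.

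**Figure D5:**
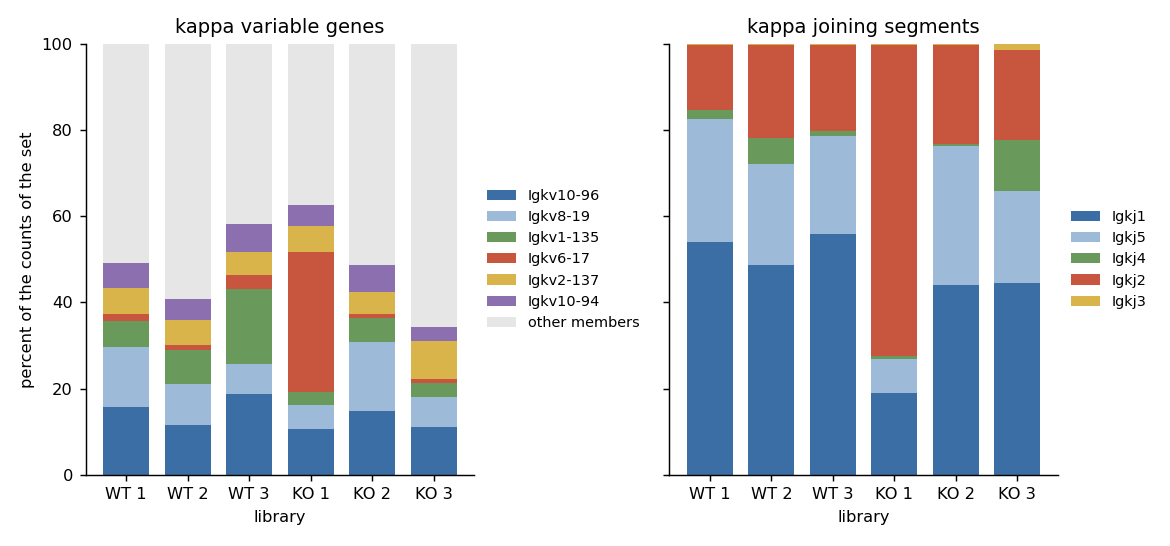
Percent of kappa V counts taken by the 6 most abundant kappa V genes (left) and percent of kappa J counts taken by each J segment (right), as stacked bars, 1 per library. In KO 1, Igkv6-17 reaches 32.3% and Igkj2 72.3%, both shown in red, while in the other libraries neither exceeds 22.9%.

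Heavy V genes were more evenly used. Ighv2-9, the most abundant over all libraries, was at 9.57, 4.44 and 3.70 CPM in WT 1 to 3 and 1.72, 5.24 and 0.327 CPM in KO 1 to 3, with overlap (log2 fold change -1.27 ± 0.89, edgeR adjusted p = 0.404). Of the 6 most abundant heavy V genes only Ighv5-4 was called, with 3.90, 3.62 and 4.38 CPM in WT 1 to 3 and 2.27, 1.71 and 1.15 CPM in KO 1 to 3 (log2 fold change -1.21 ± 0.18, edgeR adjusted p = 0.000265). Ighv2-2 was also lower in every KO library but did not pass (log2 fold change -0.995 ± 0.361, edgeR adjusted p = 0.101); it was called without KO 2 (edgeR adjusted p = 0.00185), by DESeq2 (adjusted p = 0.00688) and by limma-voom (adjusted p = 0.0263). Ighv1-53, Ighv1-26 and Ighv3-6 overlapped between groups, with log2 fold changes of -0.02, -0.36 and -0.24. Without KO 2, Ighv1-26 was called lower, at -1.17 (edgeR adjusted p = 0.00167). Ighv1-53 was at 3.66 and 3.49 CPM in KO 1 and KO 2, above all WT libraries, and at 0.732 CPM in KO 3; without KO 3 it was called higher, at 0.42 (edgeR adjusted p = 0.0318). The effective number of heavy V genes was 27.0 to 38.6 in WT and 27.2 to 34.1 in KO, so no library was dominated as KO 1 was for kappa.

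By family, Ighv1 held 46 of the 82 heavy V members and 44.6% to 46.6% of heavy V counts in WT and 43.5% to 50.5% in KO; 18 of its 43 tested members were called lower. The share of Ighv14 was 4.89% to 5.38% in WT and 6.58% to 9.09% in KO, and that of Ighv9 was 3.36% to 3.57% in WT and 1.53% to 2.43% in KO, both without overlap. Among kappa families, Igkv1 took 12.5% to 22.0% in WT and 6.04% to 11.0% in KO, and Igkv12 took 3.20% to 5.39% in WT and 6.39% to 10.2% in KO. Yet 2 of the 4 tested Igkv12 members were called lower, and its most abundant member, Igkv12-41, overlapped, at 1.64% to 3.10% in WT and 3.05% to 8.69% in KO. The shares of Ighv10, Ighv11 and Igkv3 also did not overlap between groups, and those of all other families did. Among all genes tested, levels did not overlap in 19.1% with KO lower and in 19.3% with KO higher. The shares of families were not tested. Igkv6 took 37.1% in KO 1 and 7.995% to 12.7% in the other 5 libraries, and of the share in KO 1 Igkv6-17 alone made up 32.3% of the kappa V counts.

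Of the 3 lambda V members only Iglv3 was called. Iglv3 had 60, 89 and 49 counts in WT 1 to 3 and 34, 42 and 20 in KO 1 to 3, a log2 fold change of -1.23 ± 0.37 (edgeR adjusted p = 0.029). This call was lost without WT 2 (edgeR adjusted p = 0.138) and without any single KO library (edgeR adjusted p = 0.0554 to 0.117). DESeq2 on all libraries did not call Iglv3 either. Iglv1 and Iglv2 had log2 fold changes of -0.41 and -0.01, and their groups overlapped. Among the diversity genes, 2 were tested and 0 were called (edgeR, with 0 at an unadjusted p under 0.05 and log2 fold changes of -0.51 and -0.05).

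Calls were found along the length of both large loci. Of the heavy V genes nearer the constant genes, 14 of 39 tested were called lower, and of those farther away 17 of 38. For kappa the counts were 14 of 36 nearer and 11 of 35 farther. By level, 29 of 75 variable members above the median and 28 of 76 at or below it were called lower. Members that shared fewer than 25% of their 50-base stretches gave 39 lower and 4 higher calls of 89 tested.

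The 7 members called higher were all V genes at or below the median level. In 5 of them (Igkv8-21, Igkv4-80, Igkv4-50, Ighv1-58 and Igkv6-14) all 3 KO but not all 3 WT libraries were above the filter's 0.0542 CPM. Their passing the filter thus leaned on the KO libraries, where they are high. Igkv8-21 had the highest log2 fold change, with 8, 11 and 10 counts in WT 1 to 3 and 126, 152 and 174 in KO 1 to 3 (3.76 ± 0.39, edgeR adjusted p = 9.55e-06). Igkv4-80 had 9, 7 and 6 counts in WT 1 to 3 and 57, 140 and 122 in KO 1 to 3 (log2 fold change 3.65 ± 0.52, edgeR adjusted p = 0.000154). Both were higher in every KO library, with no overlap between groups. Igkv8-21 lies at chr6:70314895-70315472 on the minus strand, and 26.4% of its 50-base stretches were shared. It is shown over 95 bases (chr6:70314895-70314989) beside its nearest relative Igkv8-30 (chr6:70117064-70117158, minus strand), with differing bases in capitals.
Igkv8-21: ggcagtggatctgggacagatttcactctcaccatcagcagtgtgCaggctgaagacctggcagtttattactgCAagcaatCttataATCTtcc
Igkv8-30: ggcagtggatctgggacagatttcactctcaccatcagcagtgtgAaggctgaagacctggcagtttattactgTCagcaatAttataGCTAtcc

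Igkv8-30 had 363, 252 and 193 counts in WT 1 to 3 and 621, 221 and 77 in KO 1 to 3, so its levels did not follow those of Igkv8-21. Ighv1-78 rose from 27, 22 and 20 counts in WT 1 to 3 to 79, 148 and 69 in KO 1 to 3 (log2 fold change 1.91 ± 0.41, edgeR adjusted p = 0.0046). Igkv4-50 and Ighv1-58 were called higher on few counts. Igkv4-50 had 5, 5 and 14 counts in WT and 23, 93 and 30 in KO (log2 fold change 2.40 ± 0.74, edgeR adjusted p = 0.0305), and Ighv1-58 had 10, 5 and 8 in WT and 11, 71 and 39 in KO (log2 fold change 2.19 ± 0.72, edgeR adjusted p = 0.0399). Leaving out WT 1, WT 2 or KO 2 ended both calls, and neither was called by limma-voom. The call of Ighv1-58 was also lost without WT 3, without KO 3 and with the legacy edgeR method. The remaining members called higher, named after their values were seen, were Ighv1-62-2, which shared 91.8% of its stretches with other genes, and Igkv6-14, whose groups overlapped. Ighv1-62-2 had 22, 13 and 16 counts in WT 1 to 3 and 64, 86 and 69 in KO 1 to 3, and Igkv6-14 had 17, 5 and 29 in WT and 76, 43 and 68 in KO.

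At the other end, 3 members were at 0 in every KO library, and they are named after their values were seen. Igkv1-122 had 23, 22 and 30 counts in WT 1 to 3, and Igkv8-18 had 16, 16 and 19. Against a floor of 3 counts over the 3 KO libraries they were at least 28.5-fold and 19.4-fold lower in KO. Ighv1-49, with 7, 35 and 19 counts in WT, was at least 23.2-fold lower and was not tested. In all, 25 members were at 0 in 1 or more libraries and 9 were not tested, of which the highest had 133 counts in total. Those 9 were Ighd1-1, Ighv14-1, Ighv1-49, Ighv1-67, Ighv1-43, Ighv5-15, Igkv12-98, Igkv9-124 and Igkv4-71.

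Genes that work with antibodies were counted from a list. Of the B-cell receptor partners and signaling genes, 9 of 9 were called lower. Cd79a, a signaling chain of the receptor, fell from 12.8 ± 0.733 to 4.87 ± 0.407 CPM (log2 fold change -1.39 ± 0.08), and Cd79b, its partner, from 16.3 ± 0.976 to 11.4 ± 0.258 CPM (log2 fold change -0.51 ± 0.06). Of the factors that drive transcription of immunoglobulin genes, 4 of 5 were called lower, Pax5, Ebf1, Pou2af1 and Spib, while Pou2f2 was not called. Of the genes for antibody secretion, 2 of 7 tested were lower and 2 higher. Jchain, which links IgM and IgA units into polymers, fell by 1.43 and Mzb1, a chaperone of IgM assembly, fell by 1.20 on the log2 scale. Xbp1 and Irf4, which effector Tregs also use, rose by 0.25 and 0.24. Among the genes of segment assembly and repair, the recombinase gene Rag1 was lower, with 18, 55 and 17 counts in WT and 0, 0 and 8 in KO, the repair gene Ung was higher, and Rag2 was at 0 in all 6 libraries. Of the surrogate light chain genes, 1 of 2 tested was lower, Vpreb3.

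Markers of other cells went different ways from list to list. All 10 B-cell markers were called lower, and their summed level was 72.4 to 79.0 CPM in WT and 32.4 to 33.9 CPM in KO, with none of them at 0. Their median log2 fold change was -1.64, and the level was nearly equal in the 3 KO libraries, unlike that of the V genes. Divided by this summed level, Igkc was 0.907 to 1.13 in WT and 0.951 to 1.29 in KO, and Igha was 0.911 to 0.974 in WT and 0.918 to 1.07 in KO, so both overlapped between groups. Cd79b fell least of the 10 markers (log2 fold change -0.51) and supplied 11.2 to 11.7 CPM of the sum in KO, so these overlaps depend on its weight. Ighd was 0.211 to 0.245 in WT and 0.257 to 0.269 in KO on this scale. Ighm was 7.91 to 8.94 in WT and 14.3 to 15.3 in KO, and the variable members were 2.28 to 2.81 in WT and 4.01, 4.21 and 1.45 in KO 1 to 3. The ratios of Ighm and Ighd thus lay above the WT range in all KO libraries, and the variable ratio in 2 of them.

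The plasma-cell list holds the same genes as the secretion list, with a summed level of 279 to 290 CPM in WT and 315 to 320 in KO, most of it from Irf4, Xbp1 and Prdm1. Of its other members, Jchain had 713 to 2325 counts per library, Mzb1 64 to 208, Sdc1 352 to 527, Derl3 453 to 740 and Tnfrsf17 0 to 16. Sdc1, Derl3 and Prdm1 were not called, and Tnfrsf17 was not tested. Neutrophil markers, 5 of 5 lower, summed to 16.7 to 22.1 CPM in WT and 0.857 to 1.17 CPM in KO, and red cell precursor markers, 6 of 6 lower, to 36.6 to 43.5 and 1.81 to 2.31 CPM. Dendritic cell markers were lower in 3 of 4 and macrophage markers lower in 2 and higher in 1 of 5. None of 4 CD8 T-cell and NK-cell markers was called (edgeR, 0 at an unadjusted p under 0.05). Of 10 T-cell and Treg markers, 2 were lower, Foxp3 and Il2ra, and 1 was higher, Ctla4. The part of other cells in the immunoglobulin values was not tested.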

How the data were processed

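Total RNA of sorted Tregs was sequenced, and the authors deposited a table of raw counts per gene symbol for 3 WT and 3 KO libraries. HISAT2, DESeq2 and mm10 are named in the submitters' processing notes, while the counting tool, its strand setting, the annotation and the treatment of reads matching several genes are not given in the sources used here. Of 32285 genes, 17307 passed filterByExpr and were tested with edgeR 4.0.16 (R 4.3.3): TMM scaling, quasi-likelihood F-test with robust estimation, all 6 libraries, no covariates, and Benjamini-Hochberg adjustment over all genes tested, with calls at 0.05. The script was tested on simulated data. Among 40 repeated symbols none was a member. Members were matched to GENCODE vM21 by symbol, 174 of 174, and sequences were read from its transcripts (GRCm38, the build of mm10). Sums, shares and ratios carry no test, except ratios to Igkc, which were tested by exact permutation.

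Members and gene lists were chosen with earlier results of these data known. Named genes were all constant members, the 6 heavy, 6 kappa and 3 lambda V genes highest in mean CPM, those among them with most of their CPM in 1 library, the 6 V genes with the highest log2 fold change, and members near the limit of 30 counts. Replicates are separate samples in the labels, which do not say whether each came from 1 mouse, so p-values measure the spread between these samples. The fit was repeated without each library in turn, with a replicate block, under other filters and scalings, and with the legacy edgeR method, limma-voom (limma 3.58.1) and DESeq2 1.42.0. The values of 1 listed gene were left out.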

Additional observations from a re-analysis of the deposited data

How the results depend on the processing

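Median direction of the members was negative under every alternative, at -0.73 to -1.41, and the scalings moved it by little. Requiring at least 1 CPM in 3 libraries left 52 members, of which 19 were called lower (13 variable, 13 heavy and 6 light) and 0 higher. Of the 19, 18 were among the 65. Fewer genes were tested there, and by edgeR. The 7 members called higher in the main fit were below 1 CPM in every library. They could not pass this filter, so their absence was fixed in advance. Members could also pass through WT alone, as Iglc3 did (1.48 to 1.93 CPM in WT, 0.509 to 0.819 in KO). With limma-voom 72 were lower and 4 higher, with DESeq2 70 and 6, and with the legacy edgeR method 56 and 5. Leaving out each library gave 51 to 74 lower and 4 to 7 higher. On the log2 scale of sums, leaving out the most abundant gene gave -0.91 for all members, -0.98 for constant and -0.93 for heavy genes, and the median over genes gave -1.15, -1.09 and -1.14, against sums of -0.60, -0.57 and -0.54. Without KO 3 the variable sum was at -0.46, and without KO 2 at -1.08. Ighv1-53 ranged from -0.31 to 0.42 over left-out libraries and turned sign without KO 3. Of the 502 comparisons of a named gene with an alternative, 471 kept a call or its absence, 20 lost a call and 10 gained one. In 1 more, a call came with the opposite sign. Genes without a call could still change sign among the 471, as Igkv6-17 did, which ranged from -1.90 to 2.95. Same-numbered libraries did not deviate together (r = 0.028, 0.0082 and 0.033 over all genes tested), so they share only a number; with the replicate block, 67 members were called lower, 61 of them among the 65, and 7 higher.

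Depth limits members of low count: 25 members, with 32 to 570 counts in all, were at 0 in 1 or more libraries. Reads shared between V genes, Xist and markers of other cells remain beside the values, and their part was not tested.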

Other observations

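Joining segments outside the members' rule gave these further values. Of the heavy J counts, Ighj1 took 17.5% to 19.7% in WT 1 to 3 and 25.7%, 15.99% and 40.6% in KO 1 to 3. Ighj2 took 27.5% to 39.4% in WT and 31.3%, 30.4% and 21.4% in KO 1 to 3. None of Ighj1, Ighj2, Ighj3 and Ighj4 was called between groups, with log2 fold changes of -0.25, -0.65, -0.08 and -0.69 (edgeR, 0 at an unadjusted p under 0.05). Igkj1 was at 1.79 to 2.82 CPM in WT and 0.519 to 1.70 CPM in KO, without overlap, and did not pass the test (log2 fold change -0.98 ± 0.33, edgeR adjusted p = 0.0652).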
